A study of Mus musculus with 192 samples.

Results

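The 8 mouse Oas genes covered here are Oas1a, Oas1b, Oas1c, Oas1g, Oas2, Oas3, Oasl1 and Oasl2, which encode the 2′-5′-oligoadenylate synthetases and their relatives. They were taken by gene name from the 12499 genes with a start-site window within 1000 bp of an annotated start, and all 8 lie on chromosome 5. A window is a 150 bp interval around a start position in the deposited RefSeq-annotated table, on genome build mm9. The table held 466 windows that name a member, of which 91 lay within 1000 bp of its start. A cell was said to list a gene when its peak file held a peak on the gene's strand that began within 2 bp of such a window.

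Single mouse embryonic fibroblasts (MEFs, connective-tissue cells grown from embryos) of strain C57BL/6 were profiled by scTSS-seq, a single-cell method that reads the 5′ ends of polyadenylated RNA. The study set out to find alternative start sites in MEFs under interferon-beta, a secreted antiviral protein. The naive group was 96 cells given interferon-beta at 100 U/ml for 1 h, and the pretreated group was 96 cells given that same treatment after an earlier pretreatment, whose agent and length the labels do not name. There was no group without interferon-beta. Each deposited sample is 1 cell and no culture, animal or plate is named, so each group counts as 1 sample. The differences below have no replicate check and no test, and the intervals (95%, exact Poisson for sums and exact Clopper-Pearson for shares) cover counting error only.

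A tag is 1 mapped read, with no molecular identifiers named. Cells whose total lay under 10% of the median over all cells were dropped, and 92 naive and 85 pretreated cells were kept. The median total was 2305630 tags in naive cells (305066 to 3857030) and 2650490 in pretreated cells (502374 to 13174300). The groups also differed in features that belong to no Oas gene. A mitochondrial peak was listed in 92 of 92 naive cells and 0 of 85 pretreated cells, and 90.1% of naive tags lay in peaks against 84.6% of pretreated tags. The part of these differences in the results below was not tested. Of 12 fibroblast markers, all except Lum were listed in at least 1 group, with a summed level of 1493 CPM (tags per 1000000 tags of the group) in naive cells and 1873 CPM in pretreated cells, ranging from 421 to 3752 and from 99.7 to 4670 CPM across cells. Vim alone gave 595 and 1088 CPM of these sums. Fn1 (287 and 147 CPM), Col3a1 (136.7 and 95.5), Pdgfra (9.76 and 2.53), Dcn (3.13 and 0.513) and Thy1 (0.674 and 0) were lower in pretreated cells. The other listed fibroblast markers were at or above their naive level there. The blood-cell markers Ptprc, Itgam and Adgre1 were listed at 0, as were the endothelial markers Pecam1, Cdh5 and Tek and all 5 epithelial markers. With the other 4 blood-cell markers the whole list summed to 15.5 CPM in naive cells, where 4 of 7 were listed (0 to 409 CPM per cell). The sum was 21.5 CPM in pretreated cells, where 2 were listed (0 to 109.8 CPM per cell). Most of the pretreated sum was Cd14, at 19.8 CPM in 33 of 85 cells, against 7.18 CPM in 15 of 92 naive cells. The endothelial marker Kdr was listed in 1 pretreated cell (2.76 CPM in the group).

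The OAS enzymes are sensors of double-stranded RNA, a sign of viral infection. When bound to it, an active OAS joins ATP into short 2′-5′-linked oligoadenylates, a second messenger of the antiviral state. Most Oas genes are classical interferon-stimulated genes: interferon activates the transcription factor complex ISGF3, which binds the interferon-stimulated response element near their starts. The Oas1 genes encode the small enzymes and are many in the mouse, Oas2 and Oas3 encode larger proteins built of repeated OAS units, and Oasl1 and Oasl2 encode OAS-like proteins with ubiquitin-like repeats at their ends.

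The core of the response element can be written GAAANNGAAA. It was searched on both strands, and overlapping matches were counted separately. In the RefSeq table of 32851 promoters on build GRCm38.p6, each running from 250 bases before to 50 after the start, 3.44% held at least 1 match. Of the 8 members, 6 had an entry in that table, and 4 of them (Oas1a, Oas1c, Oas1g and Oas3) held a match. A match is a description of the letters and not evidence of binding. The sequences below belong to Oas3, to the Oas1b and Oas1c pair and to Oasl2, each listed in at least 4 pretreated cells, and are written 5′ to 3′ on the strand of the named gene, with matches to the core in capitals. The first is the 120 bases upstream of the Oas3 start (GRCm38.p6, chr5:120777660-120777779, minus strand), with its match at positions -75 to -66. The next lies upstream of Oas1c (chr5:120812515-120812634, minus strand), and its 120 bases are also all that separates the Oas1c start from the start of the GENCODE vM21 transcript Oas1b-201 on the plus strand. Its overlapping matches stand at -114 to -105 and -108 to -99 from Oas1c, and at -16 to -7 and -22 to -13 counted from Oas1b-201. The last pair comes from inside the first exon of the GENCODE vM21 transcript Oasl2-201 (GRCm38, plus strand, chr5:114897459-114897488 and chr5:114897488-114897517), since most Oasl2 peaks lay downstream of these letters and not at the annotated start.
Oas3: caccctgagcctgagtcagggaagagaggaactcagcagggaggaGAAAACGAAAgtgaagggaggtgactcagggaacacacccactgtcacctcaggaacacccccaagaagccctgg
Oas1c: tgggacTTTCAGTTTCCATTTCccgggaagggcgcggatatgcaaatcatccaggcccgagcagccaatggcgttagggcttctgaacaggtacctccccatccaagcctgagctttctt
Oasl2, exon positions 524 to 553: ctccctgcagTTTCACTTTCaattcttgtc
Oasl2, exon positions 553 to 582: caaagcttggTTTCTGTTTCcagtttctcc

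Start-site tags of the Oas family were rare in naive cells and common in pretreated cells. At least 1 member was listed in 16 of 92 naive cells (17.4%, interval 10.3 to 26.7) and in 83 of 85 pretreated cells (97.6%, 91.8 to 99.7), a difference of 80.3 percentage points. The family's summed tags numbered 2687 in naive cells, or 13.2 CPM, and 70186 in pretreated cells, or 245 CPM. The log2 ratio of these levels, pretreated over naive, was 4.21 (4.16 to 4.27). It was 4.88 without the highest cell of each member and group, and 2.71 when windows at any distance were counted. The method reads 5′ ends, so these levels were not divided by gene length. Over all members, 49.9% of pretreated tags that name a member lay beyond 1000 bp of its start. The levels within 1000 bp leave those tags out. In pretreated cells the order of levels was Oasl2, Oas2, Oas1b, Oasl1, Oas3, Oas1c and Oas1a, with counting intervals that did not overlap between neighbours, and Oas1g had no tags. With no replicate the spread behind this order is unknown.

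**Figure D1:**
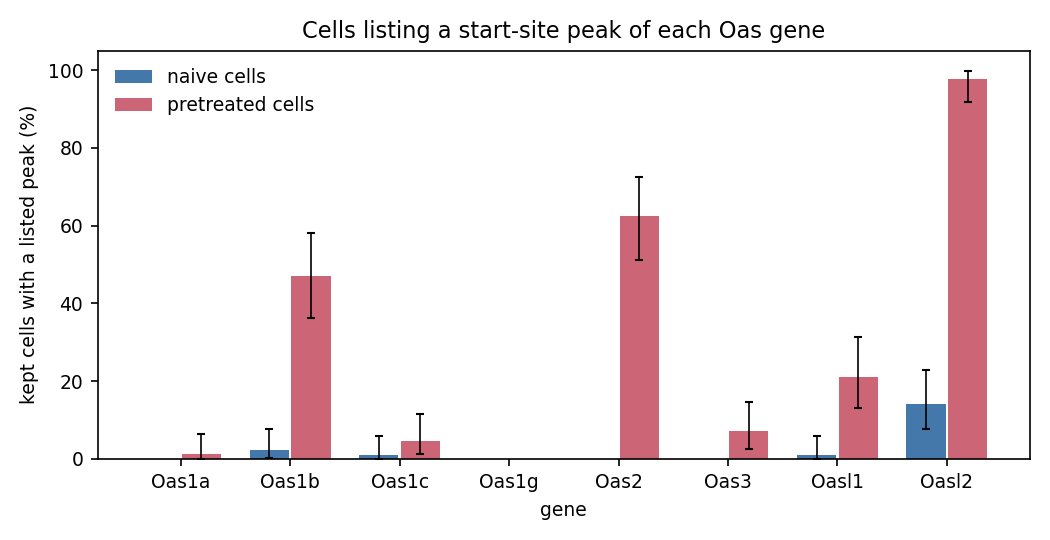
Share of kept cells (%) with a listed start-site peak of each Oas gene, in 92 naive and 85 pretreated cells; bars start at 0 and whiskers are 95% Clopper-Pearson intervals, drawn where at least 1 cell listed the gene. Oasl2 (97.6%), Oas2 (62.4%), Oas1b (47.1%) and Oasl1 (21.2%) were listed most often in pretreated cells, and no gene except Oasl2 passed 2.17% in naive cells.

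Of the 8 members, 7 had tags in the kept cells, 4 had at least 5 CPM in a group, and 3 of those had tags in both groups, so that a ratio could be given. All 3 (Oas1b, Oasl1 and Oasl2) had a log2 ratio of at least 1 in favour of pretreated cells and none had one of at most -1. Oas1b and Oasl1 reached 5 CPM only in the pretreated group, so they had to differ in that direction to be counted, and for Oasl1 the minimum alone fixed the call. The count is a description and nothing is read from it. With windows within 100 bp only Oas1b did, as Oasl2 then had no naive tags and Oasl1 a log2 ratio of 0.67. With windows at any distance 6 members did, but Oas1b had a log2 ratio of 0.68. Of 29538 pretreated tags then counted for Oasl1, 21036 lay in windows placed in Oasl2. Over all 6423 genes held to the same 5 CPM minimum within 1000 bp, 31.7% had a log2 ratio of at least 1. Of these genes 12.9% had one of at most -1, and the median was 0.44. Oasl2 reached 5 CPM in both groups, and 1.68% of the tested genes had a ratio at or above its own. The fourth member to reach 5 CPM, Oas2, was listed in pretreated cells only, which was so for 2.25% of the 6619 genes that reached this level. The share of listing cells was higher in pretreated cells by at least 25 percentage points for 3 members, Oas1b, Oas2 and Oasl2, and for 19.9% of these 6619 genes. It was lower by that much for no member and for 1.33% of the genes. Oas1b and Oas2 reached 5 CPM only in the pretreated group, so they were counted through the group where they were listed more often. These shares, and that of genes listed in pretreated cells only, are descriptions too and nothing is read from them.

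Among the Oas1 genes, Oas1b had most of the tags. Oas1b is the flavivirus resistance gene of wild mice. Most laboratory strains carry a truncated form of it, and RefSeq's GRCm38 annotation classes it as a transcribed pseudogene. In naive cells it was listed in 2 of 92 cells, at 304 and 2251.9 tags per 10000000 tags of the cell. In pretreated cells it was listed in 40 of 85 (47.1%, 36.1 to 58.2), with a lowest, median and highest scaled count of 198.3, 629.8 and 2370.7. The groups therefore differed in how many cells listed Oas1b, while both naive values fell within the range of the pretreated ones. The group level was 3.75 CPM (3.49 to 4.02) in naive and 27.9 CPM (27.3 to 28.5) in pretreated cells, a log2 ratio of 2.89. A single naive cell held 730 of the 762 naive tags (95.8%). Without the highest cell of each group the log2 ratio was 7.21, resting on the 32 tags of the other naive cell. These values leave out windows that name Oas1b but lie more than 1000 bp from its start. Those windows held 4823 tags in 11 naive cells (23.7 CPM) and 4656 in 28 pretreated cells (16.2 CPM).

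The other Oas1 genes were seldom listed near their annotated starts. Oas1c, which is read away from Oas1b out of the 120 bases printed above, was listed in 1 naive cell at 333.4 and in 4 pretreated cells at 244.3, 339.6, 467.2 and 1594.5 tags per 10000000. Its group levels of 0.452 and 2.37 CPM (log2 ratio 2.38) stayed under the 5 CPM minimum. Oas1a, an active synthetase, was listed in 1 pretreated cell at 208.8 tags per 10000000 (0.185 CPM) and at 0 in naive cells. Oas1g, its close paralog, was listed at 0 in the kept cells of both groups. The transcripts of Oas1a and Oas1g are identical at 90.6% of aligned positions, and those of Oas1a and Oas1b at 66.8%. How the mapping placed reads that match more than 1 paralog is not given in the sources used here, so the split of tags between Oas1a and Oas1g is uncertain.

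The larger synthetases Oas2 and Oas3 were listed at 0 in all 92 naive cells. Oas2 was listed in 53 of 85 pretreated cells (62.4%, 51.2 to 72.6), with a lowest, median and highest scaled count of 202.1, 548.1 and 2892.4 tags per 10000000. Its group level was 39.8 CPM (39.04 to 40.5), from 11404 tags. No single cell decided this level: the highest cell held 18.5% of the tags. Oas3 was listed in 6 pretreated cells (7.06%, 2.63 to 14.7), at 268.1, 290.7, 343.1, 497.3, 667.9 and 1041.2 tags per 10000000. Its group level was 3.16 CPM (2.95 to 3.37), and 37.1% of its tags came from 1 cell. No fold is given against a group listed at 0, because the files hold only peaks above a minimum of 200 tags per 10000000 and a lower level is not seen.

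The OAS-like genes Oasl1 and Oasl2 were both listed in more pretreated than naive cells. Oasl1 encodes a protein without synthetase activity that is known to hold back translation of the Irf7 mRNA. It was listed in 1 naive cell at 824.5 tags per 10000000. In pretreated cells it was listed in 18 (21.2%, 13.1 to 31.4), with a lowest, median and highest value of 313.5, 633.3 and 3113.1, so that the naive cell lay inside their range. Its group level was 0.738 CPM (0.624 to 0.866) in naive cells against 21.97 CPM (21.4 to 22.5) after pretreatment, a log2 ratio of 4.89 (4.66 to 5.14). The naive level rested on that 1 cell, and 37.5% of the pretreated tags came from another single cell, so without them no ratio can be given.

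Oasl2, which encodes an OAS-like protein that keeps synthetase activity, was the most abundant member in both groups, with 62.6% of the family's tags in naive and 61.1% in pretreated cells. It was listed in 13 of 92 naive cells (14.1%, 7.74 to 22.95), with a lowest, median and highest scaled count of 202, 698.5 and 2291.5 tags per 10000000. In pretreated cells it was listed in 83 of 85 (97.6%, 91.8 to 99.7), with values of 297.9, 1475.4 and 6600.2. Both the share of listing cells and the value in a listing cell were thus higher in pretreated cells: the share by 6.91 times and the median listed value by 2.11 times, though the ranges overlapped. The group level was 8.28 CPM (7.89 to 8.68) in naive cells against 149.4 CPM (148.006 to 150.8) after pretreatment, a log2 ratio of 4.17 (4.10 to 4.25). The highest pretreated cell held 6.24% of the Oasl2 tags.

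**Figure D2:**
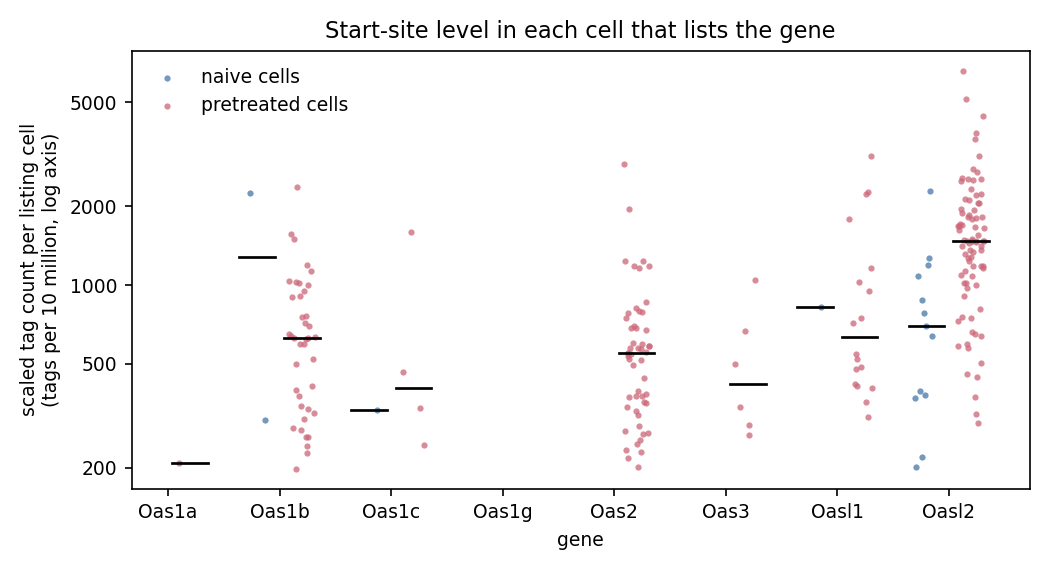
Scaled tag count (tags per 10000000 tags of the cell, log axis) of each Oas gene in every cell that lists it; points are cells, black bars are medians over listing cells, and cells that do not list the gene are not drawn. Pretreated medians were 1475.4 for Oasl2, 633.3 for Oasl1, 629.8 for Oas1b and 548.1 for Oas2, and the few naive points lie within the pretreated ranges except the lowest Oasl2 cells.

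Cells were thinned to 1 depth, which left 76 naive and 83 pretreated cells, and the 200-tag minimum was applied again. Only listed peaks could be thinned, and the other rules of the peak caller were not rerun, so peaks missed in shallow cells stay missing. At least 1 member was then listed in 14.5% of naive and 97.6% of pretreated cells. The thinned shares were 11.8% and 97.6% for Oasl2, 1.32% and 45.8% for Oas1b, 1.32% and 21.7% for Oasl1, and 0% and 59.04% for Oas2. Across pretreated cells the number of members listed and the total tags had a Spearman's rho of -0.11 (85 cells, which share the scaled peak minimum).

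The members also differed in where their starts lay. Distances below are as deposited, from the RefSeq start to the window, and positive downstream. Over all genes under this rule, the 200 bp around the annotated start (100 bp to either side) held 80.6% of naive tags and 81.3% of pretreated tags, and 4.82% and 4.69% of peaks lay beyond 500 bp. In pretreated cells Oas2, Oas3 and Oas1b followed that common pattern. Oasl2, Oasl1 and Oas1c did not, with 0.569%, 5.35% and 22.2% of their pretreated tags within 100 bp. The distance ranges named for single genes here and below were chosen after the values were seen.

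All 53 Oas2 peaks of the pretreated cells lay between -3 and 44 bp, with a median of 11 bp, spread over 12 windows. The window with the most tags (mm9, chr5:121199772-121199921, at 11 bp) held 31.2% of them in 11 cells. Of its 3560 tags, 2114 came from 1 cell, and without that cell it held 15.6% and the window at 20 bp led with 18.1%. The 6 Oas3 peaks lay between -5 and 23 bp, and the window chr5:121227574-121227723 at 20 bp held 45.9% of the tags in 2 cells, but 336 of its 415 tags came from 1 cell, without which it held 13.9%. Of 40 pretreated cells listing Oas1b, 39 had their peak within 100 bp of the start (median 17 bp, range -36 to 194, 19 windows). Its leading window by cells, chr5:121262588-121262737 at 15 bp, was used by 6 cells, and chr5:121262598-121262747 at 25 bp held the most tags (22.96% in 5 cells). Without the cell that gave 1209 of its 1835 tags it held 9.23%, and the window at 15 bp had the most tags (20.4%). The naive Oas1b cell with 730 tags used chr5:121262569-121262718 at -1 bp, which 1 pretreated cell also used.

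Oas1c peaks were scattered. The 4 pretreated cells each used their own window, at 27, 379, 598 and 863 bp (22.2%, 13.2%, 51.5% and 13.1% of the tags), and the naive cell used 1 at 396 bp. The single Oas1a peak lay at -25 bp.

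Oasl1 peaks lay downstream of the RefSeq start. Of 18 pretreated cells, 16 had their peak between 100 and 200 bp downstream (median 152 bp, range 88 to 179), and the window chr5:115373330-115373479 at 155 bp, in the 5′ UTR of exon 1, held 70.6% of the tags in 7 cells (52.9% without the highest cell). With its neighbour at 152 bp it held 82.7% of the tags in 12 of the 18 cells. The deposited GENCODE annotation has another start 27 bp downstream of this window. The naive cell used a different window, chr5:115373079-115373228 at -96 bp, which no pretreated cell used. The first exon of the GENCODE transcript Oasl1-201 (93 bases) and the RefSeq promoter of Oasl1 held no match to the core element, which says only that these letters are not in these stretches.

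Oasl2 was the member whose starts lay farthest from the RefSeq start. In pretreated cells 85 peaks in 83 cells lay between -1 and 874 bp, with quartiles at 597, 639 and 801 bp, in 30 windows. In naive cells 13 peaks lay between 580 and 930 bp, with a median of 604 bp. Only 2 of 83 pretreated cells had a peak at the annotated start (within 100 bp), with 244 tags or 0.569% of the total, and each of these cells also had a downstream peak. The peaks fell into a nearer and a farther set. Between 500 and 750 bp, in windows that the deposited table places in the 5′ UTR of exon 1, lay the peaks of 55 of 83 pretreated cells (66.3%, 55.1 to 76.3) with 70.98% of the tags. Beyond 750 bp, in windows placed in exon 1 but not in its 5′ UTR, lay those of 28 cells (33.7%, 23.7 to 44.9) with 28.5% of the tags. In naive cells the same ranges held 8 and 5 of 13 cells (1 of the 5 in a window placed in an intron), with 65.2% and 34.8% of the tags, and the intervals of the cell shares overlapped between the groups.

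The Oasl2 starts lay near other annotated starts. In GENCODE vM21 the transcripts Oasl2-209, Oasl2-204 and Oasl2-205 start 596, 640 and 806 bp downstream of Oasl2-201, which itself starts 2 bp from the RefSeq start. The median distance of the pretreated peaks to the nearest start in the deposited GENCODE table was 16 bp, against 639 bp to the RefSeq start. The RefSeq promoter at the annotated Oasl2 start held no match to the core element. The first exon of Oasl2-201 (927 bases) held 2, at positions 534 to 543 and 563 to 572, the pair printed above. The nearer set of peaks began at 572 bp in 1 pretreated cell, close to the end of the second match. Its other peaks lay at 580 bp or farther downstream. Of 89883 GENCODE transcripts of at least 700 bases, 7.12% held a match in their first 700 bases.

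The leading Oasl2 window (the one with the largest sum over cells of its share of the cell's Oasl2 tags) was chr5:115347463-115347612, at 594 bp, in both groups. It held 10 pretreated cells with 6463 tags (15.1% of the Oasl2 tags). In naive cells it held 2 cells and 323 tags and tied by cells with 2 other windows, at 597 and 845 bp, so the match rests on few naive cells. Oasl2 was the only member listed by at least 5 cells in each group, and 37.4% of the 5281 genes so listed had the same leading window in both groups. Taking members with at least 1 cell in each group, the leading windows of Oas1b, Oasl1 and Oas1c lay 19, 251 and 467 bp apart between the groups, each from 1 or 2 naive cells. Since the peak caller kept peaks at least 300 bp apart, a start close to a stronger one in the same cell is not listed, and the use of 2 nearby starts by 1 cell cannot be seen.

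**Figure D3:**
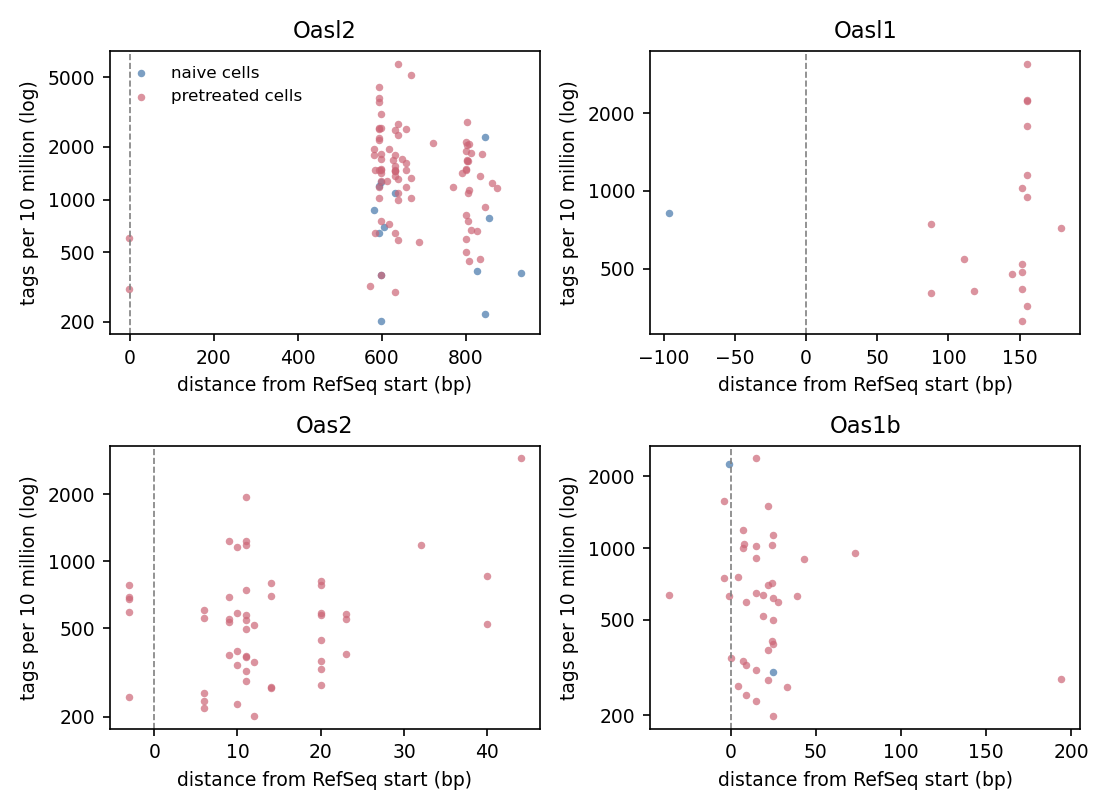
Distance of each listed peak from the RefSeq start (bp, positive downstream, dashed line at 0) against its scaled tag count (tags per 10000000, log axis) for Oasl2, Oasl1, Oas2 and Oas1b; points are peaks of single cells and the distance axes differ between panels. Oas2 and Oas1b peaks surround the annotated start, most Oasl1 peaks lie near 152 to 155 bp, and Oasl2 peaks form a nearer set (500 to 750 bp) and a farther set (beyond 750 bp), with 2 peaks at the start.

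Tags were also less concentrated within the Oasl2 peaks of pretreated cells. The deposited focus ratio of a peak is the share of its tags close to its main position, so 1 is a sharp start and a low value a broad one. Its median over Oasl2 peaks was 0.974 in naive cells (13 peaks) and 0.726 in pretreated cells (85 peaks, quartiles 0.543 and 0.918, range 0.199 to 0.999). The nearer and the farther set of pretreated peaks had medians of 0.703 and 0.7235. Medians in pretreated cells were higher for Oas1c (0.99 over 4 peaks) and Oasl1 (0.9895 over 18 peaks), while Oas2 had 0.936, Oas3 0.895 and Oas1b 0.8745. Over all member peaks the median was 0.974 in naive cells (17 peaks, 0.94 to 0.991) and 0.875 in pretreated cells (207 peaks, 0.809 to 0.918), a difference of -0.099. Without Oasl2 the medians were 0.9645 over 4 peaks and 0.935 over 122. Peaks of all genes under the same rule also had a lower ratio in pretreated cells, 0.897 against 0.956. The part of depth and of the lower share of tags in peaks in this difference was not tested.

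Single pretreated cells listed different sets of members. The median number of members per cell was 0 in naive and 2 in pretreated cells. Among naive cells 76 listed no member, 15 listed 1 and 1 listed 2 (Oasl1 and Oasl2). Among pretreated cells 2 listed none, 11 listed 1, 36 listed 2, 23 listed 3, 12 listed 4 and 1 listed 5. At least 2 members were thus listed in 72 of 85 pretreated cells (84.7%) and in 1 naive cell. The family's level per pretreated cell ran from 0 through a median of 218.3 to 936.1 CPM, while the highest naive cell had 229.2 CPM.

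**Figure D4:**
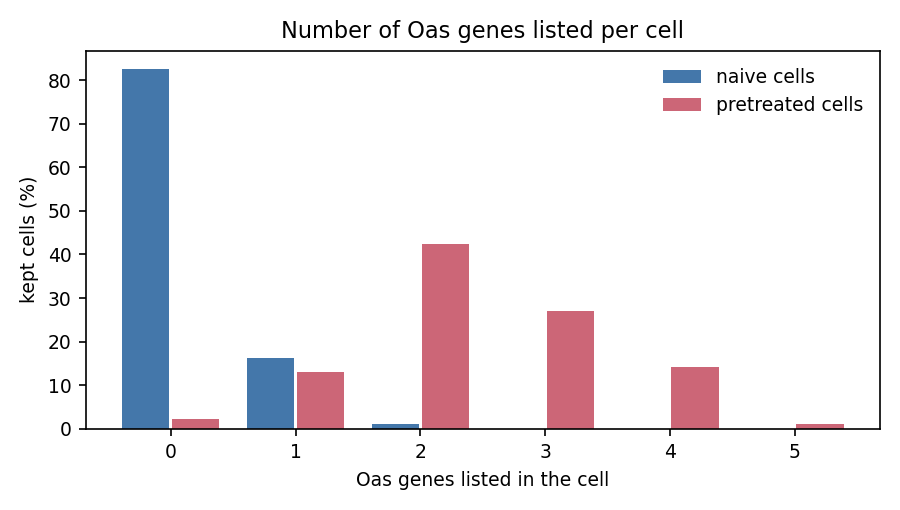
Share of kept cells (%) by the number of Oas genes they list, for 92 naive and 85 pretreated cells. Naive cells sit at 0 (82.6%) or 1 (16.3%), and pretreated cells peak at 2 (42.4%) and reach 5 (1.18%).

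Oasl2 was listed in 100% of the pretreated cells that listed Oas1b, Oas1c, Oas2, Oas3 or Oasl1, and in 93.75% to 97.5% of the cells without each of these, close to its 97.6% of all pretreated cells. Oas2 and Oas1b were listed together in 24 cells: Oas2 was listed in 60% of the cells with Oas1b and 64.4% of those without. Their levels had a Spearman's rho of 0.02 across the 85 cells. Oasl1 and Oas1b were listed together in 13 cells, with Oasl1 in 32.5% of the cells with Oas1b and 11.1% of those without (rho 0.33). Oasl1 was listed in 20.8% of the cells with Oas2 and 21.9% of those without (rho 0.04). The neighbours Oas1b and Oas1c were listed together in 3 cells, with Oas1c alone in 1. These correlations are descriptions over cells of 1 sample, in which many values are 0.

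Other genes of the pathway were counted in lists chosen by textbook role. Over all tested genes, 31.7% had a log2 ratio of at least 1. In the list of 7 genes around the OAS enzymes and their products, 3 had tags and 1 could be tested. That gene was Abce1, which encodes a ribosome-recycling factor, and it had 161 CPM in naive and 107 CPM in pretreated cells (log2 ratio -0.58). The paralog Oas1d was listed in 1 pretreated cell with 157 tags.

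Of 10 genes that sense foreign RNA or DNA, 8 could be tested, 4 had a log2 ratio of at least 1 and none had one of at most -1, with a median of 1.13. The 4 were Zbp1, a sensor of left-handed nucleic acid (10.5 and 385 CPM, log2 ratio 5.20), the RNA-editing enzyme Adar (7.63 and 50.5 CPM, 2.73), and the RNA sensors Ifih1 (8.29 and 45.7 CPM, 2.46) and Dhx58 (9.97 and 36.6 CPM, 1.88). The related sensor Ddx58 had 12.96 and 16.9 CPM (0.38). Eif2ak2, the double-stranded RNA-dependent kinase PKR, had 106 and 92.9 CPM (-0.19), Tlr3 had 14.6 and 12.7 CPM (-0.20) and Tmem173, the adaptor STING, had 29.7 and 28.3 CPM (-0.07). Mavs, the adaptor of the RNA sensors, stayed under 5 CPM in both groups (1.5 and 2.43).

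Of 10 genes that carry the interferon signal to ISGF3 or shape it, 9 could be tested, 5 had a log2 ratio of at least 1 and none had one of at most -1, with a median of 1.46. Among the 5, Irf7, the transcription factor whose translation Oasl1 is known to limit, had 0.689 CPM in naive and 34.9 CPM in pretreated cells (log2 ratio 5.66). The receptor chain Ifnar2 had 5.95 and 46.5 CPM (2.97), the feedback inhibitor Usp18 326 and 1003 CPM (1.62), and the receptor chain Ifnar1 4.20 and 11.6 CPM (1.46). Irf7 and Ifnar1 reached 5 CPM only in the pretreated group, so they had to differ in that direction to be counted. For Irf7 the minimum alone fixed the call. The count of this list is a description and nothing is read from it. Of the ISGF3 genes Stat2 and Irf9, Stat2 had 107 and 111 CPM (0.05) and Irf9 had 39.98 and 48.7 CPM (0.29). Jak1 (48.7 and 55.4 CPM, 0.19) and Irf1 (55.4 and 95.6 CPM, 0.79) also stayed under a log2 ratio of 1, and Tyk2 stayed under 5 CPM (0.654 and 2.63).

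Across the 85 pretreated cells, the summed family level was compared with 2316 genes listed in at least 50% of those cells. The 5 genes with the highest Spearman's rho were the histone gene Hist1h2bc (0.41), Phf11b (0.37), Pdcd10 (0.37), the interferon-stimulated gene Ifi44 (0.36) and the centromere gene Cenpa (0.36), against a median of 0.02 and a 95th percentile of 0.20. Phf11b was listed in 3 naive and 78 pretreated cells (7.53 and 165 CPM), and Ifi44 in 16 and 84 cells (18.97 and 380 CPM). Hist1h2bc (213 and 86.1 CPM) and Pdcd10 (119.6 and 32.9 CPM) had a lower level in pretreated cells, and Cenpa had 65.97 and 87.9 CPM. In naive cells the rho was -0.02 for Hist1h2bc and 0.08 for Pdcd10, and the other 3 genes were listed in too few naive cells. The correlations are weak and are no finding in values this sparse.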

How the data were processed

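scTSS-seq was run on 192 single cells, with 1 deposited peak file per cell. Per the file headers, the authors called peaks in each cell by HOMER findPeaks (start-site style, strands apart), 150 bp wide and at least 300 bp apart, with a minimum of 200 tags per 10000000, a tag density of at least 2 times that of the surrounding 10000 bp and a Poisson p of 0.0001. The peak signal is the tag count scaled to 10000000 tags, per the file headers, and the focus ratio is a deposited fraction. Bowtie2, HOMER and build mm9 are named per the submitters' processing notes; the handling of duplicates and multi-mapped reads is not given in the sources used here. The deposited table of 553094 windows is annotated with RefSeq and, in a copy, with GENCODE, whose distances were used beside it.

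Tags were recovered as signal times the header total divided by 10000000: all 1082504 peaks gave whole numbers within 0.1 or within the deposited rounding, and the 426263116 tags equal those in the headers. Peaks were given to the nearest window within 2 bp, and the gene's strand came from GENCODE vM21. CPM is per 1000000 header tags. Log2 ratios are pretreated over naive with 0.5 tag added and need tags in both groups. Genes were counted in the main setting where they also reached 5 CPM in either group. Oas1c stayed under that minimum, so its ratio is given but not counted there. Cells under 10% of the median total (230563 tags) were left out, 4 naive and 11 pretreated. For genes most like the family, log2(CPM + 1) was used. A pair of deposited matrices with 384 value columns without names was not used here. Python 3.11.15, pandas 2.3.3, NumPy 2.4.6, SciPy 1.17.1 and matplotlib 3.10.9 were used, and the ratio code was tested on simulated data.

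The text names all members, genes of the 3 pathway lists (some are not reported here), the 5 genes most like the family, and the leading start windows with any other that held at least 20% of a member's tags. The members and lists were chosen with earlier results of these data known. Alternatives covered the filters on cells and values, the scaling, the weight of cells, the window distance, the strand and the annotation.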

Additional observations from a re-analysis of the deposited data

Results flagged for a closer look

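Some members had signal in windows that name them but lie more than 1000 bp from their RefSeq start, outside the rule used above, and above the level in naive cells. Oas1a had 3534 such tags in 24 pretreated cells (12.3 CPM) and none in naive cells, against 53 tags near its start. Oas1g had 3301 tags in 13 pretreated cells (11.5 CPM) and 118 in 2 naive cells (0.580 CPM), against none near its start. Oas2 had 16754 tags in 58 pretreated cells (58.4 CPM) and 27 in 2 naive cells (0.133 CPM), and 88.1% of the pretreated tags lay in windows placed in exons. Oas1b went the other way in level. It had 4823 such tags in 11 naive cells (23.7 CPM) and 4656 in 28 pretreated cells (16.2 CPM). Of the 23238 pretreated tags in distant windows that name Oasl1, 90.5% lay in windows that the same table places in exons or introns of Oasl2, in 79 cells, so the gene name of these windows does not give the gene they lie in. Over all members, 49.9% of pretreated and 82.3% of naive tags that name a member lay beyond 1000 bp. Why tags lie there was not tested.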

How the results depend on the processing

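The 3 members with a log2 ratio of at least 1 became 1 with windows within 100 bp, where Oasl2 has no naive tags and Oasl1 had 0.67, and 6 with windows at any distance, where Oas1b had 0.68. The count was 4 with no minimum CPM or under the GENCODE table and 2 without the highest cell of each member and group. The share of all genes with such a ratio is given for the main setting only (31.7%). These counts are therefore descriptions, and nothing is read from them. The family's log2 ratio of 4.21 was 4.04 scaled to promoter-window tags, 3.82 with median-of-ratios scaling (which moves all genes by 0.39), 4.09 with cells weighted equally, 4.03 within 100 bp, 2.71 at any distance, 4.14 with exact peak starts and 4.88 without the highest cells. It was 4.13 under the GENCODE table and 4.27 without Oasl2, alternatives chosen after seeing the data, as was the share of a window without a member's highest cell. The difference in listing cells of 80.3 points was 59.8 at any distance and between 75.997 and 83.1 under the other alternatives. The leading window of Oasl2 was the same and the difference in focus ratio was below 0 under every alternative tried (-0.142 to -0.119). Log2 ratios of single members stayed above 0 under every alternative that gave one: Oas1b 0.68 to 7.21 (11 alternatives), Oas1c 1.998 to 3.74 (9), Oasl1 0.67 to 5.06 (10) and Oasl2 2.69 to 4.31 (10). The Oasl1 ratio at any distance (2.98) rests mostly on windows placed in Oasl2. These held 2500 of its 2650 naive and 21036 of its 29538 pretreated tags. No paired analysis was possible because the cell numbers only name cells, each group is 1 sample and no result comes from a test. The rare members Oas1a, Oas1c and Oas3 rest on 1 to 6 cells, and a level under the 200-tag minimum is not seen.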
